A study of Mus musculus with 30 samples.

Results

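Reactive astrocyte genes other than Gfap and complement were examined as a set of 36 genes. Symbols came from published panels of the reactive state, the pathway that runs from gp130 to STAT3 and others tied to reactive or immature astrocytes. The choice was made with earlier results of these data known. All 36 matched 1 gene identifier each among the 36528 in the files. They were read as 10 genes of the pan-reactive panel, 4 of the A1 panel, 9 of the A2 panel, 5 of gp130 to STAT3 signalling and 8 others tied to reactive or immature astrocytes. RNA was sequenced from 30 libraries of sorted brain cells of mice aged 11.5 months, in 6 groups of 5. The groups were Gfap+ astrocytes, Cd11b+ myeloid cells and NeuN+ neurons, each from PS2APP transgenic mice and from non-transgenic (non-Tg) mice. PS2APP mice express mutant forms of human amyloid precursor protein and presenilin 2 and develop plaques with age. The labels name neither the promoters of the transgenes nor the brain region, and the non-Tg groups carry no transgene. The astrocyte sort selected on Gfap protein, so a change in Gfap can change which cells enter the gate.

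Astrocytes respond to injury, infection and protein deposits by enlarging their processes and raising a large set of genes, of which Gfap is the best known. Cytokines of the interleukin-6 family bind receptor pairs that contain gp130 (Il6st), JAK kinases then phosphorylate STAT3, and STAT3 switches on targets such as Socs3, which shuts the signal off. Genes induced by bacterial lipopolysaccharide were named A1 and genes induced by ischaemia A2, and genes raised in both were called pan-reactive. Many of the same genes are also made by microglia, neutrophils or neurons.

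Libraries held 2015535 to 6749681 counts in total, and 3 counts correspond to 0.444 to 1.49 CPM of the raw library total. Other CPM values scale that total by TMM factors. The labels do not tie libraries to animals, so p-values measure only the spread between these libraries. Each population held its own markers. In astrocyte libraries the 10 astrocyte markers summed to 9950 to 16245 CPM in the non-Tg and 7587 to 10859 CPM in the PS2APP group, and in neuron libraries the 10 neuron markers to 1491 to 2509 CPM. In each population 1 PS2APP library stood apart on the first principal component and lacked the rise of Arhgap6, a non-member, that the other 4 showed. These were astrocyte replicate 3 (3.65 CPM of Arhgap6 against 72.9 to 211 CPM in the other 4), myeloid replicate 4 (10.8 against 338 to 569 CPM) and neuron replicate 5 (60.4 against 287 to 888 CPM). Their Arhgap6 lay near the non-Tg ranges of 6.50 to 14.0, 3.42 to 8.54 and 49.4 to 64.1 CPM. The reason was not tested. Member effects of PS2APP at an edgeR adjusted p under 0.05 are given with and without these libraries, and other member effects with them only.

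The members differed widely in level in astrocytes. Compared per gene length on the deposited RPKM scale, the extracellular matrix protein Tnc was highest in non-Tg astrocyte libraries at 11.8 ± 4.44 (SD, n = 5). The signalling subunit Il6st followed at 8.27 ± 1.47, the fatty acid binding protein Fabp7 at 5.89 ± 2.29, Stat3 at 5.03 ± 1.07 and the leukaemia inhibitory factor receptor Lifr at 4.53 ± 0.80. The spreads (mean ± SD) of neighbours in that order overlapped. In PS2APP astrocyte libraries Tnc was again highest (10.2 ± 2.23), and Fabp7 (9.15 ± 3.24), Dock6 (8.83 ± 2.83) and Stat3 (8.11 ± 1.29) came next, again with spreads that overlapped.

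Several genes often used as signs of reactive astrocytes were close to absent. Steap4, a metalloreductase, had 0 counts in all 10 astrocyte libraries, which allows up to 0.114 CPM over the non-Tg and 0.154 CPM over the PS2APP group. Lcn2, the iron-binding lipocalin that marks astrocytes after lipopolysaccharide, had 2 counts in all non-Tg and 3 in all PS2APP astrocyte libraries. Srgn, a secretory granule proteoglycan, had 0 and 4 counts, and the small heat shock protein Hspb1 had 4 and 2, although 51.7% of the 50-base words of the Hspb1 transcript also occur in the pseudogene Hsp25-ps1, and reads that align to both places were not counted. Slc10a6, a transporter, had 1 and 0 counts. In both astrocyte groups 5 of the 36 members had at most 3 counts in every library, and 16 averaged at least 10 CPM.

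**Figure D1:**
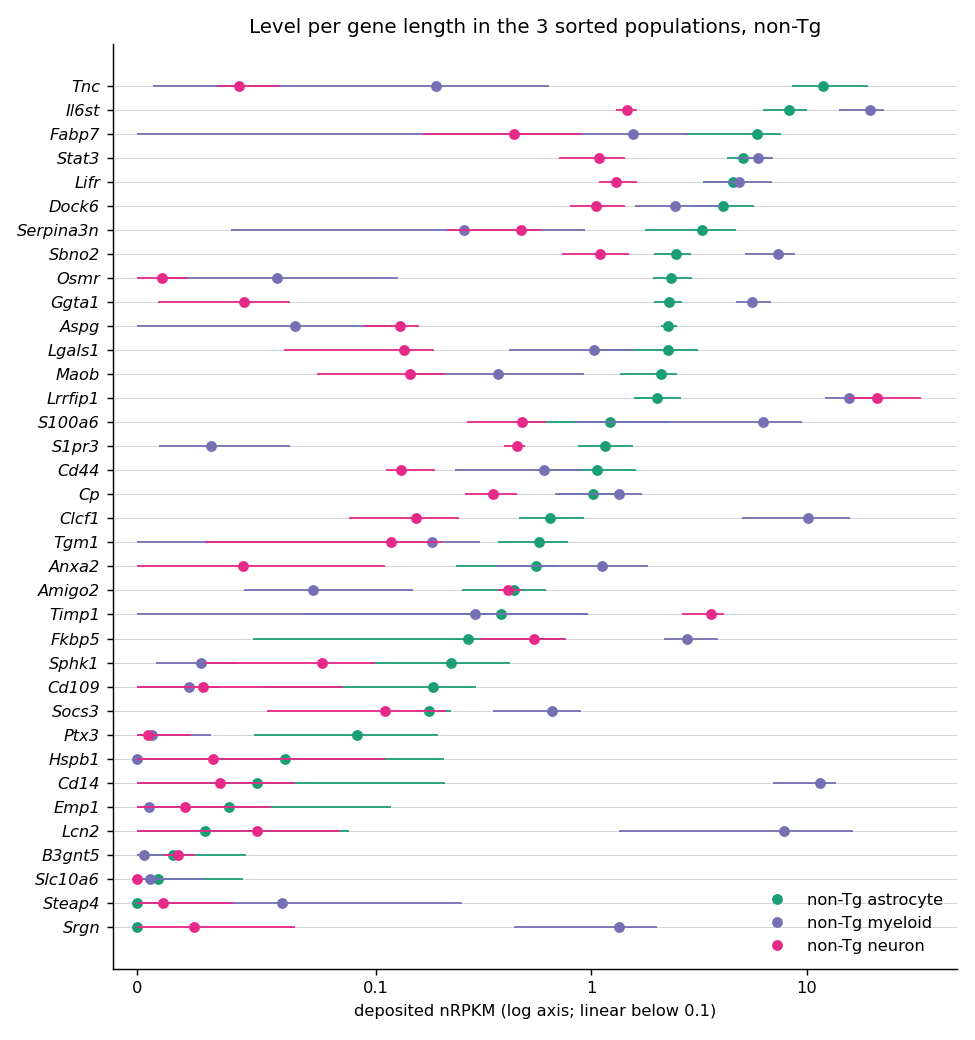
Deposited RPKM of each of the 36 genes (points, mean; lines, lowest to highest of 5 libraries) in non-Tg astrocyte, myeloid and neuron libraries, on an axis that is logarithmic above 0.1 and linear below. Tnc, Osmr and Aspg stand far higher in astrocyte libraries, and Cd14, Lcn2, Srgn and Clcf1 far higher in myeloid libraries.

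Which cells express these genes without the transgenes was read from the 15 non-Tg libraries. Of 29 members tested, 11 were higher and 12 lower in astrocyte than in myeloid libraries (edgeR adjusted p under 0.05). Over all genes tested 61.1% were called, 32.8% higher and 28.3% lower. Against neuron libraries 20 members were higher and 3 lower, where 55.5% of all genes were called, 26.4% higher and 29.1% lower. Per the labels astrocytes gave the least RNA, and their sample identifiers form a series of their own, so cell type, RNA input and sample series cannot be told apart in these contrasts.

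The 10 members higher in astrocyte libraries than in both other populations were Serpina3n, S1pr3, Osmr, Aspg, Tgm1, Sphk1, Fabp7, Tnc, Dock6 and Maob. Osmr, the receptor subunit for oncostatin M, averaged 44.4 ± 7.98 CPM in astrocyte, 1.25 ± 1.19 CPM in myeloid and 0.191 ± 0.178 CPM in neuron libraries (SD, n = 5 each, scaled over all 30 libraries). Aspg, an asparaginase, averaged 30.1 ± 2.28, 0.986 ± 0.698 and 1.63 ± 0.38 CPM. Maob, the monoamine oxidase used as an imaging target for astrocytes, averaged 16.3 ± 3.91, 3.20 ± 2.75 and 1.06 ± 0.352 CPM. For Osmr, Aspg and Maob every astrocyte library was above every library of the other populations. Tnc had the widest gap, with 279 ± 105 CPM in astrocyte, 5.03 ± 6.67 CPM in myeloid and 0.962 ± 0.217 CPM in neuron libraries. Dock6 was nearest to the limit against myeloid cells, at 0.59 ± 0.24 on the log2 scale (SE, edgeR adjusted p = 0.036), and kept that call in 11 of 15 fits with 1 library left out.

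Against myeloid cells, the pan-reactive panel had 4 members higher and 1 lower in astrocytes of 8 tested, the A1 panel 1 higher and 3 lower of 4, the A2 panel 2 and 2 of 4, and the other reactive genes 4 and 3 of 8. Cd14, the co-receptor for lipopolysaccharide, averaged 0.241 ± 0.436 CPM in astrocyte and 62.2 ± 15.3 CPM in myeloid libraries, a log2 difference of -7.83 ± 0.53 (SE, edgeR adjusted p = 2.4e-11). Lcn2 averaged 0.0782 ± 0.112 and 23.8 ± 16.5 CPM. Clcf1, a cytokine of the interleukin-6 family that signals through gp130, averaged 1.69 ± 0.5 CPM in astrocyte and 29.7 ± 11.6 CPM in myeloid libraries. The glucocorticoid-induced chaperone Fkbp5 and Lrrfip1 were lower in astrocyte than in both other populations, with Lrrfip1 at 40.8 ± 8.15 CPM in astrocyte, 356 ± 65.9 CPM in myeloid and 414 ± 146 CPM in neuron libraries. Timp1, an inhibitor of matrix metalloproteinases, was lower in astrocyte (1.08 ± 0.998 CPM) than in neuron libraries (9.80 ± 1.73 CPM). Of the 5 genes from gp130 to STAT3, 0 were higher and 3 lower than in myeloid libraries, and 4 were higher than in neuron libraries. Il6st averaged 145 ± 26.0 CPM in astrocyte, 387 ± 69.7 CPM in myeloid and 24.4 ± 2.16 CPM in neuron libraries, and Sbno2 had the same order. Stat3 and Lifr were above neuron libraries with no call against myeloid libraries, and Socs3 was below myeloid libraries with no call against neuron libraries. Outside this pathway, Ggta1 and Anxa2 had the order of Il6st, and Anxa2 kept its call against myeloid libraries in 5 of 15 such fits.

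The next comparison asked which members differ between PS2APP and non-Tg astrocytes. Aspg rose 2.56-fold, Sbno2 2.37-fold, Lrrfip1 2.21-fold and Dock6 2.19-fold, and 0 members fell. These 4 are among 23 members tested, and 0.185% of all 14043 genes were called, each of them higher (edgeR quasi-likelihood test, adjusted p under 0.05). The unadjusted p was under 0.05 for 9 members (39.1%) and 2415 of all genes (17.2%). As the members were chosen with earlier results of these data known, these counts are no independent test of the set. The other 13 members were too low to be tested in astrocytes: Lcn2, Steap4, Timp1, Hspb1, Fkbp5, Srgn, Ptx3, Emp1, Clcf1, Cd14, Slc10a6, B3gnt5 and Socs3. Of the 23, 12 had a positive and 11 a negative log2 fold change, and the median was 0.34 against 0.0066 over all genes tested. The groups did not overlap for 5 members, with PS2APP higher for each, where 1.26% of all genes tested did not overlap with PS2APP higher and 1.73% with PS2APP lower. The summed members held 902 to 1062 CPM in non-Tg and 1095 to 1339 CPM in PS2APP astrocyte libraries, with PS2APP replicate 3 the highest. In bulk libraries, more RNA per astrocyte and a larger share of astrocytes that express a gene cannot be told apart.

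**Figure D2:**
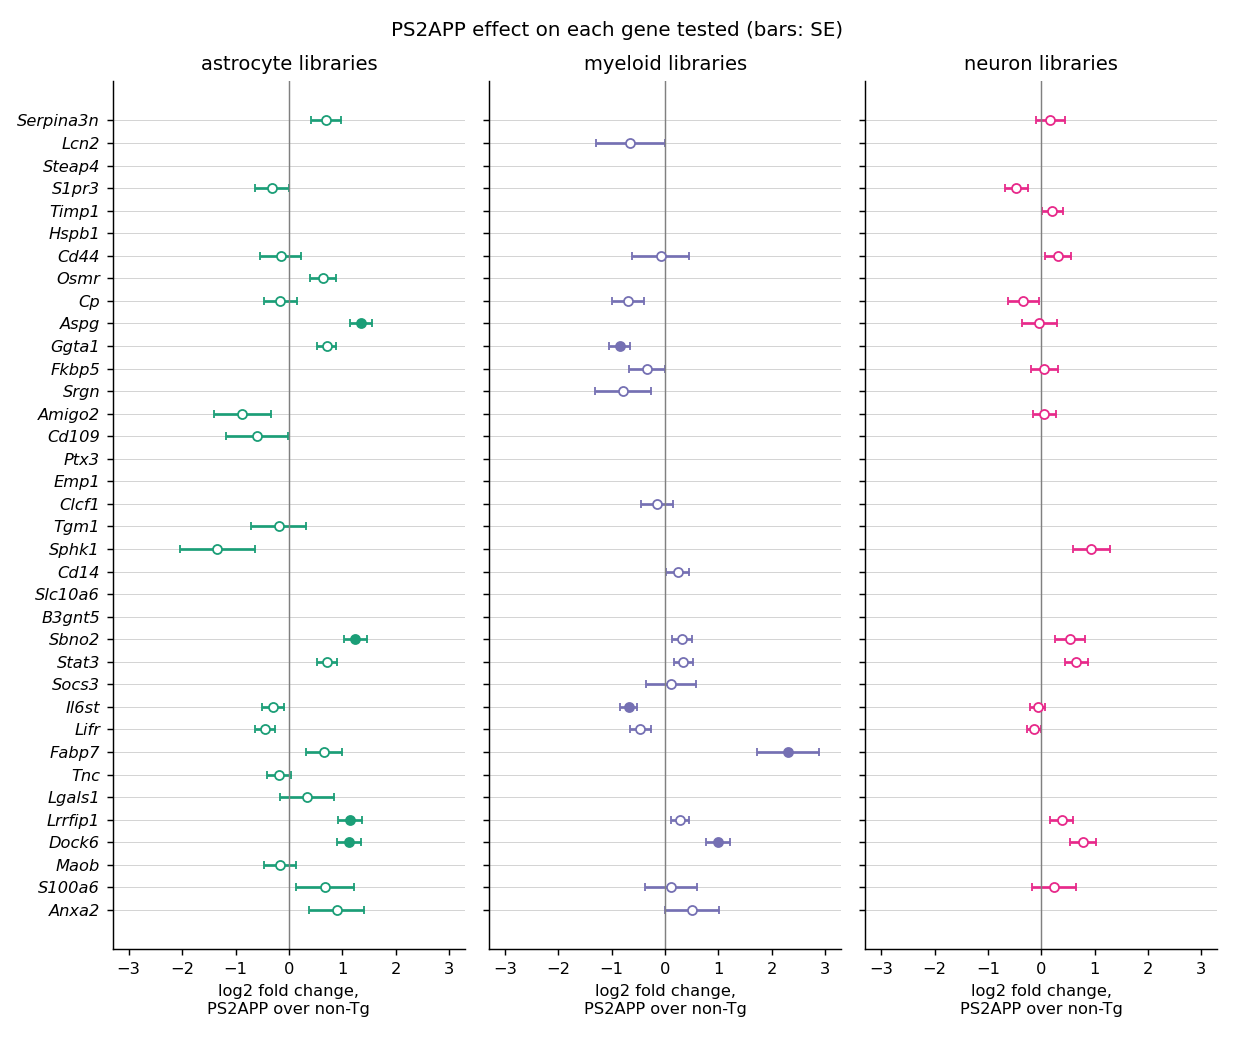
Log2 fold change, PS2APP over non-Tg, of every member tested in astrocyte, myeloid and neuron libraries (bars, SE; filled points, edgeR adjusted p under 0.05; no point, not tested). Aspg, Sbno2, Lrrfip1 and Dock6 are filled in astrocyte libraries, Ggta1, Il6st, Fabp7 and Dock6 in myeloid libraries, and no point is filled in neuron libraries.

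In the pan-reactive panel 1 of 6 tested members rose. Aspg (chromosome 12, 112106683 to 112127573, GRCm38.p6) held 50.1, 56.5, 93.3, 75.3 and 58.9 CPM in the PS2APP and 28.5, 24.8, 25.6, 24.0 and 27.9 CPM in the non-Tg astrocyte libraries. Every PS2APP library lay above every non-Tg library, and the non-Tg libraries were close together. The log2 fold change was 1.35 ± 0.21 (SE, edgeR adjusted p = 0.0071), and the call was kept in 10 of 10 fits that left out 1 library each, with 1.21 (edgeR adjusted p = 0.0051) without PS2APP replicate 3, which is the highest. The call was lost in the fit of all 30 libraries (edgeR adjusted p = 0.059).

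Osmr held 88.6, 52.2, 34.6, 50.9 and 73.4 CPM in PS2APP and 31.6, 31.8, 42.7, 38.7 and 48.0 CPM in non-Tg astrocyte libraries. Here 4 PS2APP libraries were above all non-Tg libraries and PS2APP replicate 3 was among them, at 0.64 ± 0.24 on the log2 scale (SE, edgeR adjusted p = 0.20). Serpina3n, a serine protease inhibitor raised in many brain injury models, held 35.4, 27.1, 26.1, 28.4 and 35.8 CPM in PS2APP and 13.7, 27.0, 25.9, 10.3 and 17.8 CPM in non-Tg libraries. The groups met at about 26 to 27 CPM, and the log2 fold change was 0.70 ± 0.27 (SE, edgeR adjusted p = 0.21). Of the Serpina3n transcript 6.9% is shared in 50-base words with Serpina3g, Serpina3c or a pseudogene. The sphingosine-1-phosphate receptor S1pr3 (-0.32 ± 0.33), the copper ferroxidase Cp (-0.16 ± 0.31) and the hyaluronan receptor Cd44 (-0.15 ± 0.38) had small negative log2 fold changes with adjusted p-values of 0.64 to 0.88 in edgeR.

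In the A1 panel 0 of 2 tested members passed in edgeR, and 1 had an unadjusted p under 0.05. Ggta1, the galactosyltransferase that makes the alpha-gal epitope, held 59.5, 57.5, 53.5, 54.1 and 61.0 CPM in PS2APP and 40.0, 29.8, 38.2, 31.1 and 36.2 CPM in non-Tg astrocyte libraries. The groups did not overlap, with a gap of 40.0 to 53.5 CPM, and the log2 fold change was 0.70 ± 0.18 (SE, edgeR adjusted p = 0.11), which DESeq2 called (adjusted p = 0.0077) and limma-voom did not. The adhesion protein Amigo2 stood at -0.87 ± 0.53 (edgeR adjusted p = 0.41). Srgn and Fkbp5 were too low to test.

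In the A2 panel 3 of 9 members were tested, 0 passed in edgeR or DESeq2, 0 had an unadjusted p under 0.05 in edgeR, and each of the 3 log2 fold changes was negative. They were Sphk1, which makes sphingosine-1-phosphate (-1.34 ± 0.70, edgeR adjusted p = 0.34), the membrane protein Cd109 (-0.60 ± 0.59) and the crosslinking enzyme Tgm1 (-0.19 ± 0.52). The untested members had few counts: the pentraxin Ptx3 had 14 in all non-Tg and 9 in all PS2APP astrocyte libraries, the membrane protein Emp1 had 8 and 16, the glycosyltransferase B3gnt5 had 6 and 17, and Clcf1 had 42 and 23. These members did not pass the filter on low counts, so a change in them was neither shown nor excluded. Their counts are raw, and library totals ran from 3412723 to 6581186 in non-Tg and from 2852260 to 6235552 in PS2APP astrocytes.

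**Figure D3:**
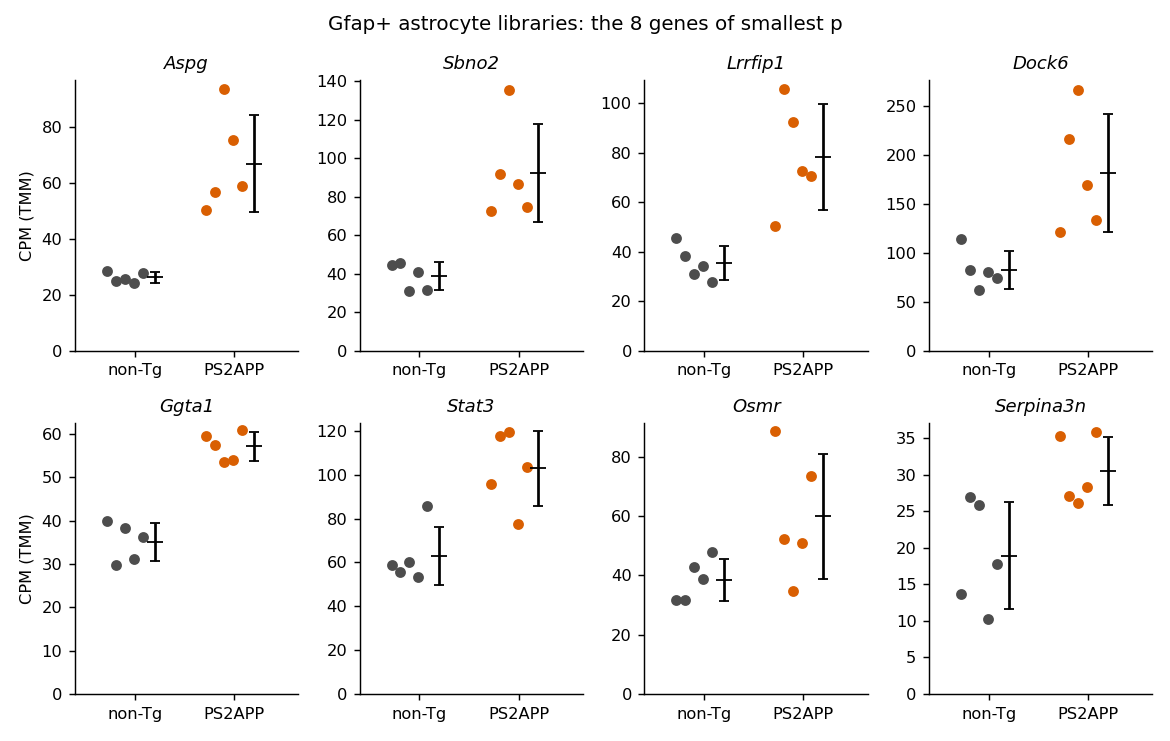
TMM-scaled CPM in each of the 10 astrocyte libraries for the 8 members of smallest p (points, libraries; bars, mean ± SD). The groups are separate for Aspg, Sbno2, Lrrfip1, Dock6 and Ggta1, and overlap for Stat3, Osmr and Serpina3n.

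In gp130 to STAT3 signalling 1 of 4 tested members rose, the co-regulator Sbno2, which is induced by STAT3 and represses NF-kappaB targets in macrophages. Sbno2 (chromosome 10, 80056992 to 80106108, GRCm38.p6) held 72.6, 91.6, 135, 86.4 and 74.8 CPM in PS2APP and 44.7, 45.6, 31.2, 41.1 and 31.4 CPM in non-Tg astrocyte libraries. Each PS2APP library was at least 72.6 CPM and no non-Tg library was above 45.6 CPM. The log2 fold change was 1.25 ± 0.21 (SE, edgeR adjusted p = 0.015). It was 1.07 (edgeR adjusted p = 0.016) without PS2APP replicate 3, and the call was lost without non-Tg replicate 5 (edgeR adjusted p = 0.050).

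Stat3 itself held 95.8, 118, 119.7, 77.7 and 104 CPM in PS2APP and 58.7, 55.7, 60.1, 53.3 and 85.9 CPM in non-Tg astrocyte libraries. The groups overlapped only through non-Tg replicate 5 and PS2APP replicate 4, and the log2 fold change was 0.71 ± 0.19 (SE, edgeR adjusted p = 0.11; DESeq2 adjusted p = 0.022). The receptor subunits had negative values that did not pass. Il6st held 128, 110, 59.2, 98.7 and 114 CPM in PS2APP and 94.4, 113, 155, 138 and 127 CPM in non-Tg libraries, a difference of -0.30 ± 0.20 (edgeR adjusted p = 0.46), and Lifr stood at -0.45 ± 0.18 (edgeR adjusted p = 0.22). Socs3, the feedback inhibitor, held 5.01, 0.669, 1.52, 2.86 and 0.689 CPM in PS2APP and 1.56, 2.24, 1.60, 1.56 and 1.89 CPM in non-Tg libraries, too low to test, with PS2APP libraries on both sides of the non-Tg range.

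Promoter sequence is shown for the member of this pathway that rose, for its feedback inhibitor and, as a contrast without the motif, for Aspg. The word TTCNNNGAA, the core of STAT binding sites, reads the same on both strands and was searched in windows from 250 bases before to 50 after each start in the RefSeq GRCm38.p6 table. It occurs in 8.3% of all 32851 windows. Of 31 members with a promoter there, 6 hold it in at least 1 window (Emp1, Sbno2, Socs3, Sphk1, Steap4 and Tgm1), against 9.55% of all 27025 genes. Sbno2 has it in 2 of its 3 windows. The 250 bases before the start are given 5′ to 3′ on the strand of the gene, with the word in capitals.
Sbno2, first window, chr10:80102703-80102952, minus strand: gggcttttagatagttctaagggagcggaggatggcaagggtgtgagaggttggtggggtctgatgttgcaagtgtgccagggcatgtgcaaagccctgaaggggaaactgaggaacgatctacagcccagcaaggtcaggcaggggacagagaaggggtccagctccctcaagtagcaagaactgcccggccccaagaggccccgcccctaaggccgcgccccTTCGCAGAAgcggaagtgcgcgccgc
Sbno2, second window, chr10:80101188-80101437, minus strand: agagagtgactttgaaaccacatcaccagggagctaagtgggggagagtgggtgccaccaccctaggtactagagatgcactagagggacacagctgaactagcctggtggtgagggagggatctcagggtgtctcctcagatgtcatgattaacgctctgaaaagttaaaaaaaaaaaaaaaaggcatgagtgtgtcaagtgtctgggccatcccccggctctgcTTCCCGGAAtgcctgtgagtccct
Socs3, chr11:117969367-117969616, minus strand: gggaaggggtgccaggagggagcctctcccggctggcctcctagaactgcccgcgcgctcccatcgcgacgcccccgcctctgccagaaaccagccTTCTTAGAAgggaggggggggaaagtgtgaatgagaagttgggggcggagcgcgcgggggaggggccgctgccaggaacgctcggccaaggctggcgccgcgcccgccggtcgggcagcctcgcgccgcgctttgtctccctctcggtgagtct
Aspg, chr12:112106433-112106682, plus strand: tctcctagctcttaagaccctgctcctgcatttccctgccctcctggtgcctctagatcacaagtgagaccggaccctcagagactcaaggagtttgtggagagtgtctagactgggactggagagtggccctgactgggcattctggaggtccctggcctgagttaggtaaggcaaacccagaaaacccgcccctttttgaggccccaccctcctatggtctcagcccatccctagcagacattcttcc
In Sbno2 the word begins 26 and 24 bases before the start, in Socs3 154 bases before it, and the windows of Aspg, Lrrfip1 and Dock6 do not hold it. Of the 4 members that rose, 1 holds the word. A match describes the sequence and does not show that the site is bound.

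Among the 8 other reactive genes, all of them tested, Lrrfip1 and Dock6 rose. Lrrfip1, a nucleic acid-binding protein of the innate immune response, held 50.4, 106, 92.4, 72.8 and 70.6 CPM in PS2APP and 45.5, 38.3, 31.0, 34.3 and 27.7 CPM in non-Tg astrocyte libraries. The groups did not overlap, although PS2APP replicate 1 lay near the highest non-Tg library. The log2 fold change was 1.14 ± 0.22 (SE, edgeR adjusted p = 0.035). Dock6, an exchange factor for the GTPases Rac and Cdc42, held 122, 216, 267, 169.8 and 133 CPM in PS2APP and 115, 83.1, 61.7, 80.7 and 74.0 CPM in non-Tg libraries, at 1.13 ± 0.22 (SE, edgeR adjusted p = 0.041). Every PS2APP library was again above every non-Tg library, with the closest pair at 115 and 122 CPM.

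With 1 astrocyte library left out in turn, Lrrfip1 kept its call in 4 of 10 and Dock6 in 3 of 10 edgeR fits. Without PS2APP replicate 3 Lrrfip1 stood at 1.08 (edgeR adjusted p = 0.047) and Dock6 at 0.95 (edgeR adjusted p = 0.073). The calls were lost, with adjusted p-values of 0.058 to 0.14 in edgeR, without PS2APP replicate 2 or 4 or without non-Tg replicate 2, 3, 4 or 5. The remaining genes of this group did not pass: Fabp7 held 11.7 to 28.6 CPM in PS2APP and 5.72 to 16.3 CPM in non-Tg libraries, a difference of 0.67 ± 0.34 (edgeR adjusted p = 0.32), and the others were the annexin Anxa2 at 0.90 ± 0.51, the calcium-binding S100a6 at 0.68 ± 0.54, the galectin Lgals1 at 0.34 ± 0.51, Maob at -0.16 ± 0.30 and Tnc at -0.19 ± 0.22.

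Other measures moved with these groups. In astrocyte libraries the 12 myeloid markers summed to 38.1 to 71.8 CPM in non-Tg and 73.0 to 139.8 CPM in PS2APP libraries, with none of the 12 at 0 in every library. The 10 neuron markers summed to 127 to 244 CPM and 218 to 786 CPM, with the highest value in PS2APP replicate 3, and the 8 oligodendrocyte markers to 683 to 1058 CPM and 876 to 1912 CPM. Neutrophil and monocyte markers stayed at or under 6.99 CPM, with S100a8, Ly6g, Ly6c2 and Plac8 at 0 in every astrocyte library. Mitochondrial genes took 2.41 to 4.74% of counts in non-Tg and 5.60 to 8.60% in PS2APP astrocyte libraries, and the part of this share in the results was not tested.

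The rise of each gene can be set beside the myeloid and neuron markers on the scale of all 30 libraries. Oligodendrocytes were not sorted here, so their markers had no such source level, and their part alone was not tested. Aspg gained 45.9 CPM in astrocyte libraries, while its whole level was 1.70 CPM in PS2APP myeloid and 1.64 CPM in PS2APP neuron libraries. Sbno2 gained 60.1 CPM, equal to 34.2% of its level in PS2APP myeloid libraries, and Lrrfip1 gained 48.5 CPM, equal to 11.9% of that level. The summed myeloid markers gained 0.725% of their level in PS2APP myeloid libraries. Of these 12 markers 4 had a positive and 8 a negative PS2APP effect in myeloid libraries themselves, with 2 called lower. Other myeloid genes were not tried as a measure. Dock6 gained 111 CPM, equal to 272% of its level in PS2APP neuron libraries and 92.5% of that in myeloid libraries, and Lrrfip1's gain equalled 8.88% of its neuron level, while the summed neuron markers gained 11.5% of theirs. Without PS2APP replicate 3 the neuron markers gained 3.9%, against 8.25% for Lrrfip1 and 216% for Dock6, and the myeloid markers 0.751%, against 27.6% for Sbno2, 11% for Lrrfip1 and 73.5% for Dock6. A further fit took a single sum over myeloid, neuron and oligodendrocyte markers as a covariate. Oligodendrocyte markers were the largest part of that sum in every astrocyte library and myeloid markers the smallest, so it does not adjust for each cell type separately. With this covariate 0 members were called in edgeR: Aspg stood at 1.0, Sbno2 at 0.78, Lrrfip1 at 0.85 and Dock6 at 0.55 (edgeR adjusted p = 0.67 to 0.90), while Osmr stood at 1.16 and Serpina3n at 1.19. Over all genes the calls went from 26 to 3, and genes at an unadjusted p under 0.05 from 2415 to 751. The marker sums moved with genotype, so this fit cannot fully tell the covariate and the genotype apart.

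Genes of the same pathways outside the members did not pass in astrocytes. Of 28 other interleukin-6 family and JAK-STAT genes, 18 were tested and 0 were called. Of the 18, 5 (27.8%) had an unadjusted p under 0.05 in edgeR, against 17.2% of all genes tested. Positive values were held by 13 (72.2%), against 50.6% of all genes tested. Their median was 0.36, against 0.0066. The phosphatase Ptpn11 stood at 0.71 ± 0.19 (edgeR adjusted p = 0.12) and the ciliary neurotrophic factor receptor Cntfr at 0.57 ± 0.22 (edgeR adjusted p = 0.20). Of 14 other genes of the reactive panels, 8 were tested and 0 were called. Against 17.2% of all genes, 2 of the 8 (25%) had an unadjusted p under 0.05 in edgeR. These were the intermediate filaments Gfap (0.82 ± 0.19, edgeR adjusted p = 0.078) and Vim (0.87 ± 0.26, edgeR adjusted p = 0.15). Gfap also marks the sort gate.

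In myeloid libraries 2 members rose and 2 fell among 18 tested. Dock6 and Fabp7 rose, and Ggta1 and Il6st fell, where 3.36% of all 12274 genes tested were called, 1.86% higher and 1.5% lower. The median of the 18 was 0.013, against -0.0021 over all genes. PS2APP myeloid libraries were shallower without overlap, at 2015535 to 2908222 counts against 3578249 to 6143018. Mitochondrial genes took 9.46 to 16.7% of their counts against 5.46 to 12.7%, the 12 myeloid markers summed to 6948 to 9720 CPM against 9330 to 10770 CPM, and the part of these differences in the results was not tested. Groups did not overlap for Fabp7 with PS2APP higher and for Ggta1 with PS2APP lower, where 2.09% and 2.71% of all genes did not.

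Ggta1 held 75.2, 68.2, 60.4, 36.9 and 46.5 CPM in PS2APP and 88.0, 123, 106, 98.9 and 102 CPM in non-Tg myeloid libraries. All PS2APP libraries were below all non-Tg libraries, and the log2 fold change was -0.85 ± 0.20 (SE, edgeR adjusted p = 0.023). Il6st held 219, 266, 266, 172 and 213 CPM in PS2APP and 264, 345, 397, 430 and 392 CPM in non-Tg libraries, overlapping only at non-Tg replicate 1, and the difference was -0.68 ± 0.16 on the log2 scale (SE, edgeR adjusted p = 0.025). Its partner Lifr stood at -0.46 ± 0.20 (edgeR adjusted p = 0.21), and Stat3 (0.34 ± 0.18), Socs3 (0.11 ± 0.47), Sbno2 (0.32 ± 0.19) and Lrrfip1 (0.28 ± 0.17) did not pass.

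Dock6 held 148, 75.0, 141, 115 and 118 CPM in PS2APP and 98.6, 63.7, 52.9, 39.8 and 46.3 CPM in non-Tg myeloid libraries. PS2APP replicate 2 and non-Tg replicate 1 crossed, and the other libraries were apart, at 0.99 ± 0.23 (SE, edgeR adjusted p = 0.023). Fabp7, a carrier of fatty acids in radial glia and astrocytes, held 17.0, 18.5, 25.8, 19.1 and 21.7 CPM in PS2APP and 7.15, 0, 1.95, 7.40 and 3.92 CPM in non-Tg libraries, at 2.31 ± 0.58 (SE, edgeR adjusted p = 0.032). The lowest PS2APP library, at 17.0 CPM, was well above the highest non-Tg library.

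**Figure D4:**
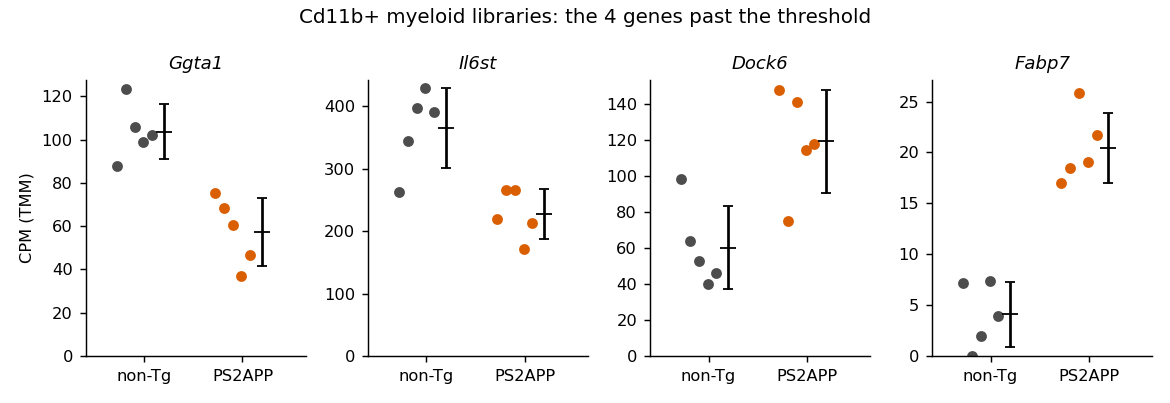
TMM-scaled CPM in each of the 10 myeloid libraries for the 4 members past the threshold (points, libraries; bars, mean ± SD). Ggta1 and Il6st are lower and Dock6 and Fabp7 higher in PS2APP libraries, and the groups are separate for Ggta1 and Fabp7.

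These 4 calls were kept in 5 of 10 leave-one-out fits for Ggta1, Il6st and Dock6 and in 4 of 10 for Fabp7, and 0 were kept without non-Tg replicate 4 or without non-Tg replicate 5. Without PS2APP replicate 4, which stood apart, Ggta1 was at -0.73 (edgeR adjusted p = 0.052), Il6st at -0.60 (0.065), Fabp7 at 2.34 (0.051) and Dock6 at 1.01 (0.040). The 10 astrocyte markers summed to 561 to 1042 CPM in non-Tg and 585 to 866 CPM in PS2APP myeloid libraries. This was a difference of -1.27% of their level in PS2APP astrocytes, while the gain of Fabp7, 16.2 CPM, equalled 72.3% of its level there. Of these 10 markers 2 had a positive and 8 a negative log2 fold change, with 1 called lower. Gfap, an astrocyte gene outside the 10, rose in the same libraries, as given below. The marker sum therefore does not stand for every astrocyte gene, and the part of astrocyte RNA alone was not tested. The oligodendrocyte markers summed to 659 to 1047 CPM and 1138 to 1844 CPM, without overlap, and their part in these results was not tested. With the marker covariate Dock6 alone was called (1.29, edgeR adjusted p = 0.014).

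Lcn2 was measurable mainly in myeloid libraries. It held 15.3, 3.78, 47.1, 22.5 and 24.8 CPM in non-Tg and 7.72, 36.5, 21.3, 7.00 and 0 CPM in PS2APP myeloid libraries, at -0.65 ± 0.65 (edgeR adjusted p = 0.62). Neutrophil and monocyte markers summed to 293, 86.1, 1099, 552 and 758 CPM and to 262, 725, 439, 166 and 19.5 CPM in the same libraries. The library with most Lcn2 had the highest sum in each genotype and the library with least the lowest, and the part of these cells in the level of Lcn2 was not tested. Cd14 (0.24 ± 0.21) and Clcf1 (-0.15 ± 0.30) did not pass. Of the other reactive-panel genes, Gfap (2.77 ± 0.25, edgeR adjusted p = 5.0e-07) and the interferon-induced GTPase Iigp1 (2.19 ± 0.61, edgeR adjusted p = 0.048) rose, 2 of 9 tested, although Iigp1 passed in just 1 of 10 fits that dropped a library. In edgeR 0 of 21 other JAK-STAT genes passed, with 4 at an unadjusted p under 0.05, as had 19.3% of all genes. Among the 4, Myc stood at 0.67 ± 0.23 (edgeR adjusted p = 0.11).

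In neuron libraries 0 of 16 tested members passed in edgeR or DESeq2, 4 had an unadjusted p under 0.05 in edgeR, as had 22.9% of all genes, and 0.00623% of all 16064 genes were called. No member had groups without overlap, where 1.26% of all genes had PS2APP higher and 1.87% PS2APP lower without overlap. Dock6 held 36.4, 33.4, 53.6, 39.1 and 80.2 CPM in PS2APP and 38.5, 27.5, 20.5, 23.8 and 31.0 CPM in non-Tg libraries, at 0.78 ± 0.24 (SE, edgeR adjusted p = 0.19). Stat3 held 22.8, 23.6, 34.0, 24.0 and 37.5 CPM and 23.8, 18.2, 11.3, 15.2 and 21.0 CPM, at 0.66 ± 0.21 (SE, edgeR adjusted p = 0.19). In both genes PS2APP replicate 5, the library that stood apart, was highest, and the groups overlapped. Sphk1 held 1.80 to 3.75 CPM in PS2APP and 0.54 to 1.82 CPM in non-Tg libraries, a difference of 0.94 ± 0.35 (edgeR adjusted p = 0.19). Of 17 other JAK-STAT genes 0 passed in edgeR and 4 had an unadjusted p under 0.05, again near that share, with Myc at 0.81 ± 0.25 and Cntfr at 1.05 ± 0.38 (edgeR adjusted p = 0.19 for both), and Gfap stood at 1.78 ± 0.26 (edgeR adjusted p = 0.059).

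Whether the PS2APP effect on a member differs between cell types was tested in 1 fit of all 30 libraries. Between astrocytes and myeloid cells 1 of 30 tested members passed, where 0.757% of all 18101 genes did, 0.464% higher and 0.293% lower in the astrocyte effect. This was Ggta1, whose effect was 1.61 ± 0.31 higher in astrocytes on the log2 scale (SE, edgeR adjusted p = 0.0053). Its levels went from 35.0 ± 4.46 to 57.1 ± 3.28 CPM in astrocyte and from 104 ± 12.9 to 57.4 ± 15.7 CPM in myeloid libraries (SD, n = 5 each). The difference passed in all 30 leave-one-out fits and was 1.47 (edgeR adjusted p = 0.012) without the 3 libraries that stood apart. An unadjusted p under 0.05 in edgeR was held by 8 of the 30 members (26.7%), against 13.0% of all genes. Of the reactive-panel genes outside the members, 1 of 13 passed, Gfap, whose effect was lower in astrocytes (-1.88 ± 0.32, edgeR adjusted p = 0.0013). Of 25 other JAK-STAT genes 0 passed, and 2 (8%) had an unadjusted p under 0.05, against that 13.0%.

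For the other members that changed, no difference passed between astrocytes and myeloid cells: Sbno2 at 1.0 ± 0.34 (edgeR adjusted p = 0.16), Lrrfip1 at 0.93 ± 0.30 (0.13), Aspg at 0.61 ± 0.75 (0.79), Dock6 at 0.19 ± 0.36 (0.88) and Fabp7 at -1.59 ± 0.75 (0.36). Il6st, which fell in myeloid libraries, did not pass either, so its fall was not shown to be particular to myeloid cells. Aspg was near its detection floor in myeloid cells, and the 95% interval of its difference ran from -0.87 to 2.09. The median difference over all genes was 0.11 with TMM and -0.021 with RLE scaling, so values near these are not read as a direction. Between astrocytes and neurons 0 of 30 members passed in edgeR or DESeq2, and 0.0331% of all genes passed in edgeR. An unadjusted p under 0.05 in edgeR was held by 5 members (16.7%), against 4.97% of all genes. Aspg stood at 1.35 ± 0.63 (edgeR adjusted p = 0.99) in that contrast, so its rise was not shown to be particular to astrocytes.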

How the data were processed

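Each of the 30 libraries has its own deposited table. Its count is, per the file headers, the number of reads aligning uniquely to a gene model, and its other value is RPKM that the authors adjusted by a size factor. GSNAP and GRCm38 were used, per the submitters' processing notes, with versions and annotation not given in the sources used here. Deposited counts entered every test, and the deposited RPKM served only to compare levels between genes. The RefSeq table gave a symbol to 31049 of the 36528 identifiers, with 96.7% of counts. Libraries were grouped by genotype and cell type, and replicate numbers follow accession order and only name libraries. Libraries within a group all differed by more than counting noise (chi-square over its degrees of freedom at least 4.06).

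PS2APP was compared with non-Tg within each population by the quasi-likelihood test of edgeR 4.0.16 under R 4.3.3, after filterByExpr and TMM scaling, with p-values adjusted by Benjamini-Hochberg across all genes tested and a threshold of 0.05. Differences between effects came from 1 fit of all 30 libraries, and cell type contrasts from the 15 non-Tg libraries. Fold changes are log2 with SE. CPM use TMM factors of the population, or of all libraries where populations are compared. DESeq2 1.42.0, limma-voom (limma 3.58.1), other filters and scalings, a marker covariate and leave-one-out fits were alternatives. On counts simulated from the astrocyte libraries (14043 genes), the edgeR step found 33 of 100 genes altered 2-fold, 80 of 100 altered 4-fold and 8 unaltered genes. The altered genes were drawn only from genes above a minimum mean count, so these shares do not apply to tested members with fewer counts, such as Sphk1. The members, lists and named genes were chosen with earlier results of these data known. Every member could be named. Values in every library are given for members past the threshold, the 8 of smallest p in astrocytes and up to 3 in the other populations. From the outside lists, genes that passed, or else the 2 of smallest p, are named, except 1 gene in myeloid libraries that is not reported here. Arhgap6, a gene outside these rules, is named for its relation to the library labels. Sequences come from the RefSeq GRCm38.p6 promoter table, and shared 50-base words were counted in the transcripts of the reference annotation. Limits from a count of 0 use raw totals and cover counting error only, while the interval of a fold change comes from its SE and includes the spread between libraries.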

Additional observations from a re-analysis of the deposited data

Results flagged for a closer look

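Among 30 groups of 5 libraries examined for the main members, 1 held a library far from the others, and chance flags about 1 in 20 such groups. Stat3 stood at 85.9 CPM in non-Tg astrocyte replicate 5, against 53.3 to 60.1 CPM in the other non-Tg astrocyte libraries, and the gap was 0.791 of the range (critical value 0.71).

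The PS2APP effect on Ggta1 differed between astrocytes and myeloid cells, with a log2 difference of 1.61 (edgeR adjusted p = 0.0053). Every PS2APP astrocyte library was above every non-Tg astrocyte library, and every PS2APP myeloid library was below every non-Tg myeloid library.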

How the results depend on the processing

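With 1 library left out in turn, the number of members called ranged from 1 to 4 in astrocyte, 0 to 4 in myeloid and 0 to 0 in neuron libraries. The lowest values were without non-Tg astrocyte replicate 5 and without non-Tg myeloid replicate 4 or 5. Members whose effect differed between astrocytes and myeloid cells ranged from 1 to 2. With the marker covariate, 0 members were called in astrocyte and 1 in myeloid libraries, and the cause was not tested. Between astrocytes and myeloid cells the count was 2 with no filter on low counts and 2 with DESeq2, in both through Osmr in addition to Ggta1. DESeq2 called 6 members in astrocytes, Ggta1 and Stat3 in addition to the 4. Fabp7 in myeloid libraries stood at 3.42 with limma-voom against 2.31 with edgeR. None of the counts of members or named members' fold changes recomputed here turned in direction, while the balance of calls over all genes did for the difference between astrocytes and myeloid cells.

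Over all genes, the 26 called in astrocytes became 514 with no filter, 327 with DESeq2, 39 with a filter of 1 CPM, 3 with the covariate and 295 in the fit of all 30 libraries. The 412 in myeloid libraries became 939, 887 and 151 with no filter, DESeq2 and the covariate, and 798 in the fit of all 30. The 1 in neuron libraries became 15 with no filter, 143 with DESeq2, 2 with the covariate and 5 in the fit of all 30. For the astrocyte minus myeloid difference the calls were 84 higher and 53 lower with TMM, 55 higher and 61 lower with RLE, and 158 higher and 224 lower with DESeq2. No paired analysis was possible because the labels give no replicate numbers. The fit without the 3 libraries farthest out and the gains without 1 of them were chosen after seeing the data. Depth limits the 13 members too low to test in astrocytes.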
